A study of Homo sapiens with 3 samples.

Results

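The 10 genes described here encode subunits of the transcription factor NF-kB (NFKB1, NFKB2, RELA and RELB), 2 inhibitors of its signalling (NFKBIA and TNFAIP3), 3 chemokines (CXCL8, CCL20 and CX3CL1) and the adhesion molecule ICAM1. They were taken by name from a table of 62564 genes with an Ensembl identifier, and all 10 were found. HepG2, a human line from a liver carcinoma given by the labels as wild type, was profiled by RNA-seq after 48 h with 20 µM A740003, with 20 µM A438079 or with PBS as the control. The design text describes A740003 and A438079 as specific antagonists of P2X7, an ATP-gated ion channel. What A740003 and A438079 were dissolved in is not stated, so an effect of solvent and an effect of the compounds cannot be told apart. Each treatment was 1 library of 1 cell line, so differences have no check against replicates, p-values were not computed, and every interval below covers counting error only.

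NF-kB is a family of paired DNA-binding proteins held in the cytoplasm by IkB proteins, of which NFKBIA encodes IkB-alpha. Receptors for cytokines and microbial products activate the IKK kinases, IkB is destroyed, and pairs such as RELA with the NFKB1 product p50 enter the nucleus. A second route, through the kinase NIK (MAP3K14), processes the NFKB2 product p100 to p52, which pairs with RELB. NFKBIA, TNFAIP3, NFKB2, RELB, ICAM1 and the chemokines are known targets of NF-kB, and hepatocytes under inflammatory signals are known to release CXCL8 and CCL20.

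Library totals were 19719922 expected counts for A740003, 19591531 for A438079 and 19358941 for PBS. Levels are given as CPM, counts per 1000000 after scaling of library sizes. Averaged over all libraries, 9 of the 10 genes reached 1 CPM, as did 12207 genes of the whole table, and RELB did not. P2RX7, the gene of the channel, had 2 counts in each library, so that a difference in it was not detectable at this depth. Of the 8 hepatocyte markers all had at least 1 CPM, and their summed level was 21995, 23589 and 21665 CPM with A740003, A438079 and PBS. Single markers ranged from 0.715 to 1.66 times PBS with A740003 and from 0.922 to 1.32 times with A438079. Among leukocyte markers, CD68 and LYZ had at least 1 CPM, while PTPRC, CSF1R, CD3E and NKG7 had no counts in any library. LYZ had 18929, 18310 and 20090 counts with A740003, A438079 and PBS, and its part in the results below was not tested. The 4 endothelial and 5 stellate or fibroblast markers found in the table all lay below 1 CPM, and 3 and 4 of them had no counts in any library.

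The stretches just upstream of these genes are shown first because they hold the DNA letters that NF-kB is known to bind. RefSeq windows (GRCh38.p14) of 250 bases before a transcription start were matched by symbol for 8 of the 10 genes. RELB and CX3CL1 had no entry. Capitals mark matches to GGAATTTCC (or GGAAATTCC on the other strand), to a looser outline that can overlap it (GGG, any 5 bases, then CC, or the same on the other strand), and to TGANTCA, an outline of the AP-1 site. All were searched on both strands. Letters are 5′ to 3′ on the gene's own strand, and stretches end before the next exon that GENCODE release 29 gives the gene. For CCL20 this is not the first exon of the gene: GENCODE also gives it a start further upstream, and the stretch lies within the gene's span.
NFKBIA, chr14:35404750-35404999, minus strand: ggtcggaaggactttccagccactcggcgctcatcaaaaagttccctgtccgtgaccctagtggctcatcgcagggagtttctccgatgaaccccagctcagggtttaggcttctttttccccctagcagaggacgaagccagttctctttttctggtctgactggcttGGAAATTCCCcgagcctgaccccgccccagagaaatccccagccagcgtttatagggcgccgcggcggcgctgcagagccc
CXCL8, chr4:73740319-73740505, plus strand: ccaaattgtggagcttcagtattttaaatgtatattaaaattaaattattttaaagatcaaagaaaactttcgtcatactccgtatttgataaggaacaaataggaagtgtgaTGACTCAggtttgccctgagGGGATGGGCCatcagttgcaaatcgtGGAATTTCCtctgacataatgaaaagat
CCL20, chr2:227813592-227813821, plus strand: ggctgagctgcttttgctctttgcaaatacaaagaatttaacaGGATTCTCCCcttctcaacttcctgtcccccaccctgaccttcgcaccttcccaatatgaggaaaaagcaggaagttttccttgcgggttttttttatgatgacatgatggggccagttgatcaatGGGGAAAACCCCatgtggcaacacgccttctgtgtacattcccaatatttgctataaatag
NFKB1, chr4:102501109-102501328, plus strand: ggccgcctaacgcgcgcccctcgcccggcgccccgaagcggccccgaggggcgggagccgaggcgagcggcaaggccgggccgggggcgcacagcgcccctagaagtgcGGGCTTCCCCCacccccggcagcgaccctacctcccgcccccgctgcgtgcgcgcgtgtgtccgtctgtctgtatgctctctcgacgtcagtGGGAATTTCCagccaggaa

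For genes whose match lies within or next to an annotated exon, 30 bases around it are shown. NFKB2 has 3 RefSeq starts, and 1 match from the window of the second and 1 from that of the third are given, out of several in each.
ICAM1, chr19:10270929-10270958, plus strand: agcttGGAAATTCCggagctgaagcggcca
TNFAIP3, chr6:137867187-137867216, plus strand: actttGGAAAGTCCCgtGGAAATCCCCggg
NFKB2, chr10:102394466-102394495, plus strand: gtcatGGGAATTCCCCcctccggggggccg
NFKB2, chr10:102395675-102395704, plus strand: ggtattttcGGGACTTTCCtaagctgctct

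GGAATTTCC was found in the windows of 4 of the 8 genes, NFKB1, NFKBIA, CXCL8 and ICAM1, against 0.502% of 27305 genes with such a window. The looser outline was found in 8 of 8 and in 57.8% of all genes. TGANTCA was found in 1 of 8, CXCL8, and in 8.06% of all genes. Both the motif and the genes came from textbook knowledge of NF-kB, and the genes were chosen with earlier results of these data known. These shares therefore describe the windows and test nothing. Of the 4 genes with GGAATTTCC, CXCL8 was at least 1.5-fold lower with both antagonists and the other 3 were not.

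The first comparison set A740003 against PBS. All 9 genes past the filter stood below the PBS level, against 49.1% of all genes compared, and 3 of them (NFKB2, CXCL8 and CX3CL1) were at least 1.5-fold lower with a 95% counting interval that excluded 1. That rule was passed by 10.6% of all genes compared. Log2 ratios varied with the GC content and length of transcripts, and when the median of genes alike in both was subtracted, CXCL8 alone of the 9 still passed. RELA and ICAM1 then stood above the PBS level, at 1.04 and 1.05 times, and the rest of the 9 below it. In a bulk library, fewer cells making a transcript and less of it per cell cannot be told apart. None was at least 1.5-fold higher, as 3.19% of all genes were. The counting interval lay wholly below 1 for 5 of the 9 and for 26.3% of all genes, and wholly above 1 for none of the 9 and for 26.6% of all genes. At 2-fold none of the 9 was lower, as 5.45% of all genes were, and 3 were at least 20% below PBS by the same interval rule, as 16.6% were. The median log2 ratio of the 9 genes was -0.11 and that of all genes compared 0.005. The 9 genes were chosen with earlier results of these data known and passed a filter on their mean level. These counts, and those of the next comparison, describe them in single libraries.

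The second comparison set A438079 against PBS. Again NFKB2, CXCL8 and CX3CL1 were at least 1.5-fold lower, where 9.47% of all genes compared were, and none was at least 1.5-fold higher, where 1.61% were. After the same subtraction, again CXCL8 alone passed. The interval lay wholly below 1 for 7 of the 9 genes and for 23.3% of all genes, and wholly above 1 for none of the 9 and for 22.9% of all genes. A ratio below 1 was found for 8 of the 9 and for 50.5% of all genes. At 2-fold none of the 9 was lower, as 3.75% of all genes were, and 6 were at least 20% below PBS, as 15% were; the added 3 were TNFAIP3, CCL20 and ICAM1. The median log2 ratio was -0.33 for the 9 genes and -0.004 for all genes. Of the 9, NFKB1 alone stood above the PBS level, and its interval included 1. After the subtraction of the trend, NFKB1 and RELA stood above it, at 1.03 and 1.08 times PBS. The same PBS library served both comparisons, so low values in both are not independent of each other.

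Lower genes outnumbered higher genes in the whole table, by 1292 to 390 with A740003 and by 1156 to 197 with A438079 at 1.5-fold. Lower genes made up 76.8% and 85.4% of these calls. When the trend of the log2 ratio with transcript GC content and length was removed, they made up 65.8% and 71.4%. With FPKM (pseudocount 0.1), called by fold alone without an interval, they made up 67.6% and 73.9%. Transcript GC content was 65.4% for RELB and 62.4% for NFKB2, the highest of the 10 genes, against a median of 47.5% over all genes compared. It was 57.1% for RELA, 56.9% for ICAM1, 55.4% for CX3CL1, 53.1% for NFKBIA, 50.1% for NFKB1 and 49.5% for TNFAIP3. CCL20 and CXCL8 lay below the median, at 35.5% and 33.4%.

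**Figure D1:**
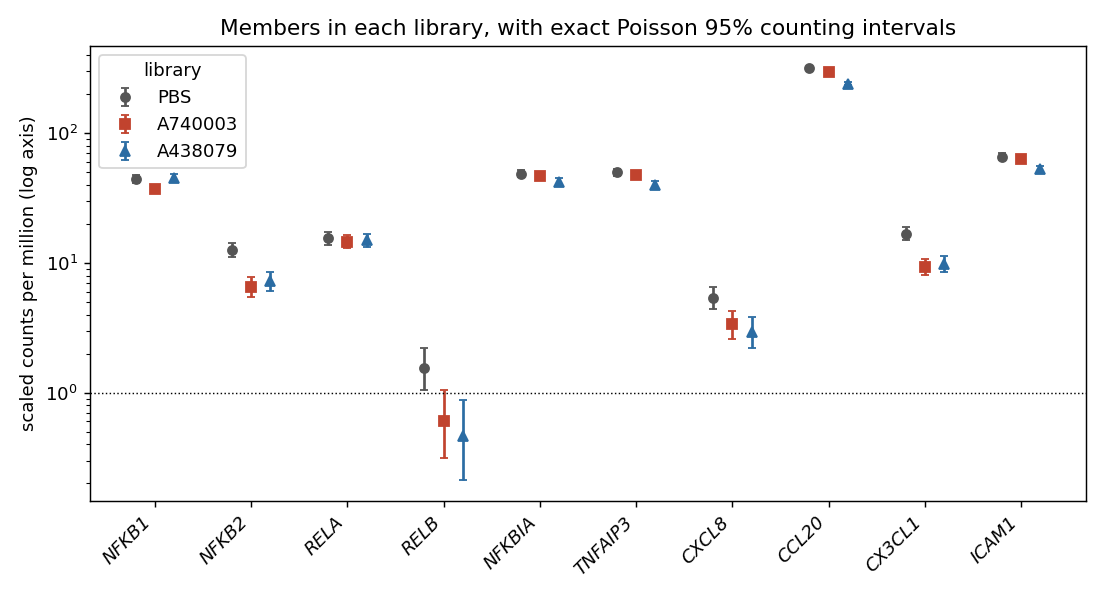
Level of each of the 10 genes in scaled CPM (log axis) in the PBS, A740003 and A438079 libraries. Bars are exact Poisson 95% counting intervals and the dotted line marks 1 CPM. The intervals of NFKB2, CXCL8, CCL20 and CX3CL1 with PBS lie above those of both antagonist libraries, and RELB lies near or below the line.

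Of the subunit genes, NFKB2 differed most among those past the filter. NFKB2 (ENSG00000077150, chromosome 10, 102394110 to 102402529, plus strand, by GENCODE release 29 for GRCh38), whose product p100 is both a precursor of a DNA-binding subunit and an inhibitor, had 130, 140 and 246 counts with A740003, with A438079 and with PBS. These were 6.55, 7.22 and 12.7 CPM. The antagonist libraries lay close together and well under PBS. Relative to PBS, A740003 gave a ratio of 0.517 (95% counting interval 0.415 to 0.642) and A438079 one of 0.570 (0.460 to 0.704). Without the GC and length trend the ratios were 0.802 and 0.850, and neither passed 1.5-fold.

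RELB (ENSG00000104856, chromosome 19, 45001430 to 45038198, plus strand), the partner of p52 in the second route, had 12, 9 and 30 counts in the same order. Its ratios over PBS were the lowest of the 10 genes, at 0.391 (0.182 to 0.787) with A740003 and 0.300 (0.126 to 0.649) with A438079. The counts are few and the intervals wide. With a mean of 0.873 CPM it was not among the genes compared, and it has no trend-removed value.

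NFKB1 (ENSG00000109320, chromosome 4, 102501329 to 102617302, plus strand) encodes p105, the precursor of p50. It had 743, 882 and 865 counts in the same order. A740003 was the low library, and A438079 and PBS differed by less than counting error. A740003 stood at 0.840 (0.761 to 0.928) times PBS and A438079 at 1.02 (0.929 to 1.12). Between the antagonists, A740003 over A438079, it was 0.823 (0.745 to 0.908).

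RELA (ENSG00000173039, chromosome 11, 65653596 to 65663094, minus strand) encodes p65, the main activating subunit. Its counts were nearly level, at 291, 290 and 301, and its ratios over PBS of 0.946 (0.802 to 1.11) and 0.965 (0.818 to 1.14) had intervals that included 1. Without the GC and length trend they were 1.04 and 1.08. The authors' FPKM values did not show the same: they were 7.19, 7.05 and 9.85, or 0.730 and 0.716 times PBS. A unit of FPKM stood for 40.5, 41.1 and 30.6 counts of RELA, and this quotient moves with the gene length that the FPKM used. An antisense gene, AP001362.2, overlaps exons of RELA and had 21.1, 23.0 and 12.0 counts. Since the use of strand in counting is not stated, reads of the pair cannot be told apart, as for TNFAIP3 and ICAM1 below.

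The quotient of counts and FPKM also moved for other subunit genes. For NFKB2 it was 34.6, 42.8 and 29.2 with A740003, A438079 and PBS, and the FPKM ratios over PBS were 0.447 and 0.389, lower than those of the counts. For NFKB1 it was 65.7, 60.6 and 55.8, with FPKM ratios of 0.729 and 0.939. For NFKBIA, TNFAIP3, CCL20 and ICAM1 the FPKM ratio was 0.946 to 0.997 times the count ratio in both comparisons with PBS. Over all genes compared, 11.7% with A740003 and 11.5% with A438079 had an FPKM ratio that differed by more than 25% from the count ratio once their median difference was set aside. Which transcripts of NFKB1, NFKB2 and RELA were present was not tested.

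**Figure D2:**
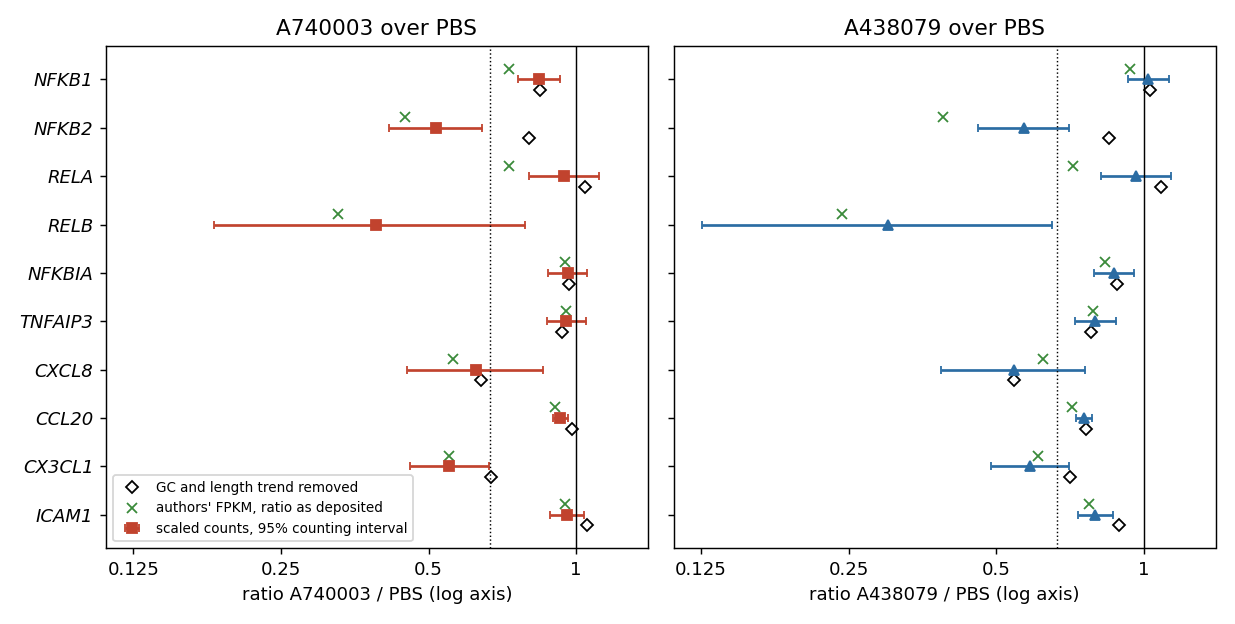
Ratio to PBS on a log axis for A740003 (left) and A438079 (right). Filled symbols with bars are scaled counts with 95% counting intervals, diamonds the same without the GC and length trend, and crosses the ratio of the authors' FPKM values; the dotted line marks 1.5-fold lower. The diamonds of NFKB2 lie far to the right of its filled symbols, those of CXCL8 lie on them, and the crosses of RELA lie to the left of its counts.

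The 2 inhibitor genes stayed close to PBS with A740003 and stood below it with A438079. NFKBIA (ENSG00000100906, chromosome 14, 35401511 to 35404749, minus strand), the gene of IkB-alpha, had 932, 824 and 948 counts in the same order. A438079 was the low library. Against PBS, the A740003 ratio was 0.962 (0.877 to 1.05) and the A438079 ratio 0.870 (0.792 to 0.957).

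TNFAIP3 (ENSG00000118503, chromosome 6, 137867188 to 137883312, plus strand) encodes A20, an enzyme that edits ubiquitin chains and dampens signalling to IKK. It had 947, 771 and 970 counts, so that A438079 was again the low library and the other two differed by less than counting error. Relative to PBS, A740003 gave 0.955 (0.872 to 1.05) and A438079 0.796 (0.723 to 0.876). An antisense gene, AL357060.1, overlaps its exons and had 8, 5 and 5 counts.

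Among the 3 chemokine genes, CCL20 was by far the most abundant and the other two stood further below PBS. CCL20 (ENSG00000115009, chromosome 2, 227805739 to 227817564, plus strand), which attracts cells bearing the receptor CCR6, had 5885, 4677 and 6197 counts in the same order. Per length it stood at 519, 409 and 572 FPKM, which ranked it 219, 276 and 202 among all genes of the table. A740003 stood at 0.929 (0.896 to 0.963) times PBS and A438079 at 0.756 (0.728 to 0.785), which became 0.979 and 0.763 without the GC and length trend.

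CXCL8 (ENSG00000169429, chromosome 4, 73740506 to 73743716, plus strand) encodes interleukin 8, an attractant of neutrophils. It had 67, 57 and 105 counts, and both antagonist libraries lay below PBS. Against PBS, the A740003 ratio was 0.624 (0.452 to 0.856) and the A438079 ratio 0.544 (0.387 to 0.758). Without the GC and length trend it was 0.639 and 0.543, so that CXCL8 alone of the 9 genes with such a value was at least 1.5-fold lower in both comparisons after that step. Its level per length was low, at 2.46, 2.73 and 4.38 FPKM. With FPKM and a pseudocount of 1, the A438079 ratio was 0.711, short of 1.5-fold.

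CX3CL1 (ENSG00000006210, chromosome 16, 57372458 to 57385048, plus strand) encodes fractalkine, a chemokine made on a membrane-bound stalk and shed by ADAM10 and ADAM17. It had 185, 192 and 328 counts. The antagonist libraries differed from each other by less than counting error and both were lower than PBS. Relative to PBS, A740003 gave 0.552 (0.458 to 0.663) and A438079 0.586 (0.488 to 0.703). Without the trend it was 0.671 and 0.707, just short of 1.5-fold, and with FPKM and a pseudocount of 1 the A438079 ratio was 0.685.

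ICAM1 (ENSG00000090339, chromosome 19, 10270835 to 10286615, plus strand) encodes a surface ligand of leukocyte integrins. It had 1259, 1024 and 1287 counts in the same order, and A438079 was the low library. A740003 stood at 0.957 (0.885 to 1.04) times PBS and A438079 at 0.797 (0.733 to 0.866). With the trend removed the values were 1.05 and 0.891. Its expected counts were not whole, and the antisense genes AC011511.2 and AC011511.5 overlap its exons, with 0 counts in every library and with 2.19, 1.98 and 9.46 counts.

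Ordered by FPKM in the PBS library, the 10 genes ran from CCL20 (572) through NFKBIA (38.2), ICAM1 (24.8), NFKB1 (15.5), TNFAIP3 (11.7), RELA (9.85), NFKB2 (8.41), CX3CL1 (5.62) and CXCL8 (4.38) to RELB (0.95). With A740003 the order of all 10 was the same, with NFKB1 (11.3) and TNFAIP3 (11.1) close together. With A438079 it differed in 1 place, CX3CL1 (3.42) standing above NFKB2 (3.27). FPKM values carry no interval here, so neighbours in this order cannot be called different.

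The antagonists, given at equal dose for equal time, were compared directly as well. No member was 1.5-fold higher or lower with A740003 than with A438079, where 2.5% of all genes compared were higher and 2.73% lower. The interval of the ratio lay wholly above 1 for 4 of the 9 genes, against 16.1% of all genes: CCL20 at 1.23 (1.18 to 1.28), ICAM1 at 1.20 (1.11 to 1.31), TNFAIP3 at 1.20 (1.09 to 1.32) and NFKBIA at 1.10 (1.01 to 1.22). It lay wholly below 1 for NFKB1, as for 16.8% of all genes. For NFKB2 the ratio was 0.907 (0.709 to 1.16), for CXCL8 1.15 (0.794 to 1.66) and for CX3CL1 0.941 (0.765 to 1.16), intervals that leave room for a difference in either direction. The median log2 ratio was 0.14, against 0.001 over all genes.

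The other genes of the pathway were taken from lists chosen by role. Of 8 further genes of the NF-kB and IkB family, 6 were measured. None was at least 1.5-fold lower with A740003 and 1, NFKBIE, was with A438079. NFKBIE, the gene of IkB-epsilon, had ratios of 0.742 (0.583 to 0.945) for A740003 and 0.643 (0.498 to 0.828) for A438079. Without the trend these were 0.930 and 0.796, and neither passed 1.5-fold. REL, the fifth subunit gene, stood at 1.24 times (1.08 to 1.44) and 0.990 times (0.849 to 1.15), or 1.07 and 0.882 times without the trend. NFKBIZ, the gene of an atypical nuclear IkB, stood at 1.03 and 0.832 times, and NKIRAS2, of a small GTPase that binds IkB, at 1.01 and 0.900 times. The median log2 ratio of these 6 genes was 0.03 and -0.13.

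Of 32 genes of the IKK complex and the signalling steps above it, 30 were measured. With A740003, 1 was at least 1.5-fold higher and 4 lower; with A438079, none was higher and 4 lower. The medians were -0.04 and -0.03. IRAK1, a kinase gene of the interleukin 1 and Toll-like receptor routes, had 409, 550 and 1019 counts in the same order and stood at 0.393 (0.349 to 0.441) and 0.541 times PBS (0.486 to 0.600). RNF31, of the complex that builds linear ubiquitin chains, stood at 0.494 and 0.597 times. Their log2 ratios with the trend removed were -0.59 and -0.20 for IRAK1 and -0.48 and -0.20 for RNF31, so after that step IRAK1 passed 1.5-fold with A740003 alone and RNF31 with neither. The trend-removed ratio of IRAK1 with A740003 was 0.666, barely past 1.5-fold. By the authors' FPKM, IRAK1 was about equally low with both antagonists, at 0.349 and 0.340 times PBS. RNF31 with A438079 was level with PBS by FPKM, at 7.99 and 7.97.

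The other two lower genes of that list, chosen after their values were seen, were TRADD (22, 13 and 40 counts) and CARD10 (48, 79 and 149 counts). The higher one, MAP3K14, the gene of NIK and also chosen after its values were seen, was at 51, 35 and 31 counts and a ratio of 1.61 (1.01 to 2.60) with A740003, or 2.23 without the trend. TRADD stood at 1.11, 0.670 and 2.06 CPM with A740003, A438079 and PBS. It passed the filter on the mean only through its PBS level, so its calls cannot count as support. The trend-removed ratios were 0.630 and 0.390 for TRADD and 0.627 and 0.891 for CARD10. CARD10 then did not pass 1.5-fold with A438079, and the interval of TRADD with A740003 then included 1. TRAF6 had log2 ratios of 0.49 and 0.10. TRAF3, whose product keeps NIK low, stood at 0.921 and 0.715 times, but at 1.23 and 0.898 times without the trend and at 1.39 and 0.814 times by FPKM, so that its direction with A740003 turned.

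**Figure D3:**
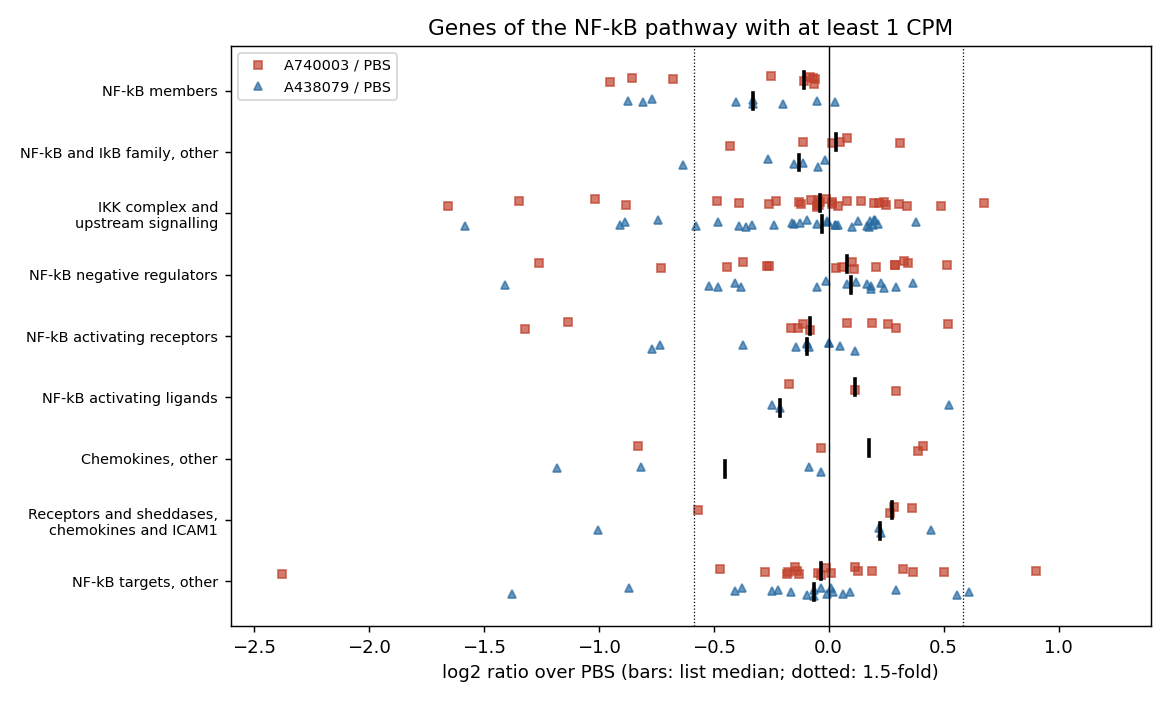
Log2 ratio to PBS of each gene with at least 1 CPM, by list, for A740003 (squares) and A438079 (triangles). Short bars are list medians and dotted lines mark 1.5-fold. The medians of the 9 genes described here are -0.11 and -0.33, while the IKK list spreads to both sides of 0 with medians of -0.04 and -0.03.

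Of 18 negative regulators, 16 were measured; 2 were at least 1.5-fold lower with A740003 and 1 with A438079, with medians of 0.08 and 0.10. USP7, a deubiquitinase gene, had ratios of 0.603 (0.576 to 0.632) for A740003 and 0.769 for A438079. Its place on this list was a choice, and whether its product restrains or promotes NF-kB in these cells was not tested. ZC3H12A, the gene of the RNase Regnase-1 and chosen after its values were seen, had 42, 37 and 99 counts and was the lower gene with both. TNIP1, whose product works with A20, stood at 0.774 and 0.698 times PBS, or 0.938 and 0.810 times without the trend. PDLIM2, whose product promotes the breakdown of p65, stood at 1.43 times (1.11 to 1.85) and 0.992 times, or 2.14 and 1.39 times without the trend. TOLLIP, of an adaptor that restrains Toll-like receptor signals, stood at 0.830 and 0.717 times, and by FPKM at 1.11 and 0.829 times.

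Of 21 receptor genes 11 were measured, and the same pair, IL17RA and IL17RC, was at least 1.5-fold lower with each antagonist. Both encode subunits of the interleukin 17 receptor, were chosen after their values were seen, and had 51, 66 and 110 counts (IL17RA) and 50, 72 and 123 counts (IL17RC). Without the GC and length trend, their ratios were 0.638 and 0.543 for A740003 and 0.826 and 0.801 for A438079, the latter short of 1.5-fold. By FPKM, IL17RA stood at 0.717 times PBS with A740003, short of 1.5-fold, and at 0.567 times with A438079. IL17RC stood at 0.223 and 0.361 times by FPKM. CD40 stood at 1.20 times PBS (1.01 to 1.42) and 0.944 times, though by FPKM at 0.943 and 0.757 times, and TNFRSF12A had 247, 197 and 197 counts. TNFRSF11A, the receptor gene RANK, stood at 0.912 and 0.773 times, and IL1RAP, of the interleukin 1 receptor complex, at 1.14 and 1.08 times. For IL1RAP the ratios were 0.995 and 0.976 without the trend. Of 15 ligand genes 3 were measured and none passed 1.5-fold. TNF had 2, 0 and 1 counts and IL1B none in any library. IL1RN, an antagonist of the interleukin 1 receptor, stood at 0.887 and 0.864 times.

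Of the 31 other chemokine genes in the table, 4 were measured and 16 had no counts in any library. CXCL16, like CX3CL1 a chemokine on a membrane-bound stalk, had 10.3, 10.4 and 18.3 CPM and stood at 0.562 (0.471 to 0.670) and 0.567 times PBS (0.475 to 0.676). With the trend removed its log2 ratios were -0.85 and -0.76, so it stayed at least 1.5-fold lower with both. CXCL5, chosen after its values were seen, had 37, 16 and 37 counts and was lower with A438079 alone by this rule. CCL15 and CCL16 had ratios of 1.31 and 1.33 for A740003 and of 0.978 and 0.942 for A438079.

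Of 10 genes for receptors and sheddases of these proteins, 4 were measured, and CXCR1, CXCR2 and CX3CR1, the receptors of CXCL8 and CX3CL1, had no counts in any library. CCR6, the receptor of CCL20, had 100, 72 and 145 counts and stood at 0.674 (0.518 to 0.876) and 0.497 times PBS (0.370 to 0.664). Without the trend it stood at 0.627 and 0.467 times, past 1.5-fold with both. By FPKM it stood at 0.824 and 0.559 times, short of 1.5-fold with A740003. ADAM10 and ADAM17 stood above PBS, by ratios of 1.29 and 1.22 for A740003 and of 1.17 and 1.36 for A438079. With the trend removed, their log2 ratios were 0.14 and 0.10 with A740003 and 0.05 and 0.28 with A438079. ITGB2, a subunit of integrins that bind ICAM1, stood at 1.20 (0.983 to 1.48) and 1.17 times PBS (0.953 to 1.44). Without the trend it stood at 1.91 and 1.69 times, past 1.5-fold with both, and by FPKM at 1.27 and 0.990 times.

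Of 34 further NF-kB targets 19 were measured, with medians of -0.03 and -0.06. With A740003 1 was at least 1.5-fold higher (PSMB9, an immunoproteasome gene, at 54, 43 and 28 counts) and 1 lower. With A438079 none was higher and 2 lower. The lower gene in both was CSF1, a macrophage growth factor gene, with 11, 22 and 58 counts and ratios of 0.257 and 0.514 without the trend. CSF1 stood at 0.554, 1.13 and 2.99 CPM with A740003, A438079 and PBS. It passed the filter on the mean only through its PBS level, so its calls cannot count as support. The other lower gene with A438079 was GADD45B, with 49, 20 and 37 counts. By the authors' FPKM, GADD45B with A438079 stood above PBS, at 2.60 against 1.74, and without the trend its interval included 1. PSMB9, CSF1 and GADD45B were chosen after their values were seen. The syndecan gene SDC4 had ratios of 1.42 (1.33 to 1.51) for A740003 and 0.937 for A438079. TAP1 stood at 0.722 and 0.769 times PBS, the cytokine gene IL32 at 0.825 and 0.894 times and NINJ1 at 1.14 and 0.842 times.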

How the data were processed

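Total RNA of HepG2 cells, 1 library per treatment, went into mRNA libraries by a SMARTer kit, per the labels' protocols. The authors deposited expected counts per gene, which need not be whole, and FPKM values scaled for gene length and library size. Columns were matched by the letter in each label. The submitters' processing notes name GRCm38, a mouse build, although the rows are human genes. Aligner, counter, annotation and strand setting were not given in the sources used here. Coordinates are those of GENCODE release 29 (GRCh38).

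The 116 rows without an Ensembl identifier (0.0792%, 0.0775% and 0.0853% of counts) were left out. Counts were rounded and scaled with TMM in edgeR 4.0.16 (factors 1.01, 0.99 and 1.00 for A740003, A438079 and PBS). Only genes averaging 1 CPM or more (19.4 to 19.7 counts) were compared. A gene was called at 1.5-fold with an exact conditional binomial (Clopper-Pearson) 95% interval that excluded 1. FPKM values have no such interval, so calls by FPKM used the fold alone. For log2 ratios 0.5 counts were added. The trend step subtracted a local median over genes with the closest ranks for GC content and for longest-transcript length, known for 97.6% of genes. Named genes were the members and, per list, up to 4 of mean 5 CPM or more with the largest absolute log2 ratio over PBS in either comparison. Exceptions that passed the filter are marked in the text. TNF, IL1B, CXCR1, CXCR2 and CX3CR1, with few or no counts, were also named outside this rule. So were P2RX7, the cell type markers and the antisense genes. Members and lists were chosen with earlier results of these data known. The steps were tested on simulated data. Alternatives tried were DESeq2 1.42.0 size factors, scaling by totals or by upper quartiles, other filters and fold sizes, counts not rounded, FPKM with pseudocounts of 0.1 and 1 (centred on the median of the count ratios), and the trend step. Some listed marker genes are not reported here.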

Additional observations from a re-analysis of the deposited data

How the results depend on the processing

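No paired analysis was possible because each treatment is 1 library. NFKB2, CXCL8 and CX3CL1 stood below PBS in both comparisons under all alternatives run for them, with ratios of 0.459 to 0.802, 0.578 to 0.651 and 0.532 to 0.671 for A740003 and 0.408 to 0.850, 0.528 to 0.711 and 0.569 to 0.707 for A438079. The count of lower members was 3 in each comparison with PBS; it was 1 and 1 without the GC and length trend, 2 and 2 among genes averaging 5 CPM or more, where CXCL8 was left out, 0 and 0 at 2-fold, 6 with A438079 at 20% or more below PBS, and 1 with A438079 by FPKM with a pseudocount of 1. That count by FPKM used the fold alone, with no interval. The members' median with A740003 was -0.43 and -0.39 by FPKM with pseudocounts of 0.1 and 1. Scaling by total counts, DESeq2 or upper quartiles and leaving counts unrounded left the counts of lower members at 3. With no filter RELB was lower with both antagonists (0.390 and 0.301).

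Over all genes, higher and lower calls among those averaging 5 CPM or more were 130 and 691 with A740003, 53 and 554 with A438079, and 65 and 101 for A740003 over A438079. With no filter, higher calls were 751, 504 and 671 in these comparisons, and lower calls between the antagonists 623. Calls by FPKM used the fold alone, with no interval. With a pseudocount of 0.1, higher calls by FPKM were 674, 459 and 590, and lower calls between the antagonists 602. With a pseudocount of 1, lower calls with A438079 were 707. With the trend removed, lower calls were 801 with A740003 and 583 with A438079. The causes of these shifts were not tested, except that filters change how many genes are compared and FPKM calls use no interval. Low counts limit the precision for RELB, TRADD, CSF1 and CXCL8, and with single libraries no spread between cultures is known.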
